A study of Mus musculus with 5 samples.

Results

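The 32 genes described here encode structural proteins of the cardiac sarcomere and its edges, leaving aside the myosins and actins. They were chosen by gene symbol, as a list of 32 names, from the 19061 gene rows of each library, and all 32 were found and had enough reads to be tested. They comprise 11 genes of the thin filament and its regulators, 2 of the thick filament and titin, 2 of the M-band and 17 of the Z-disc and its periphery. The hearts came from C57BL/6 mice carrying the MHC-CnATg transgene, in which the alpha myosin heavy chain promoter drives an active calcineurin in cardiomyocytes. Every heart was of this genotype, and no wild-type heart was analysed here. The vehicle group had 2 libraries and the JIB-04 group 3. JIB-04, an inhibitor of Jumonji histone demethylases, was dosed at 50 mg/kg, 3 times a week, from 4 weeks of age, and all hearts were collected on postnatal day 158. In the title of JIB-04 replicate 3 the submitters spelled the genotype with another letter, while its genotype field reads like the others. The labels name neither sex nor batch and do not state that each library is a separate animal, so p-values measure the spread between these libraries only, which may be technical. The comparison asks whether long-term dosing altered the transcripts of the contractile apparatus in the hypertrophic heart.

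Sarcomeres are the repeating contractile units of striated muscle. Thin filaments of actin, tropomyosin and troponin are anchored in the Z-disc by alpha-actinin, thick filaments of myosin are cross-linked in the M-band by myomesin, and titin spans from the Z-disc to the M-band. In the heart, mutations of many of these genes cause cardiomyopathy, and fetal or slow skeletal isoforms such as slow skeletal troponin I are replaced after birth by adult cardiac ones. The Z-disc also holds signalling proteins, among them the calsarcins, which bind calcineurin, the phosphatase that the transgene adds here.

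The promoters of 5 of these genes are shown. Ttn, Mybpc3, Myoz2 and Myom1 are those whose window holds a MEF2 site or a CArG box and whose JIB-04 libraries all lay below the vehicle libraries, and Mypn is the gene whose JIB-04 libraries all lay above them. A RefSeq window of 300 bases, 250 before and 50 after a gene's start (GRCm38.p6, the mm10 build), was found for 27 of the 32 genes, 35 windows in all, because some genes have more than 1 start and their windows can overlap. Capitals mark matches on either strand, and each sequence runs 5′ to 3′ along the gene's own strand.
Ttn (chr2:76982498-76982797, minus strand): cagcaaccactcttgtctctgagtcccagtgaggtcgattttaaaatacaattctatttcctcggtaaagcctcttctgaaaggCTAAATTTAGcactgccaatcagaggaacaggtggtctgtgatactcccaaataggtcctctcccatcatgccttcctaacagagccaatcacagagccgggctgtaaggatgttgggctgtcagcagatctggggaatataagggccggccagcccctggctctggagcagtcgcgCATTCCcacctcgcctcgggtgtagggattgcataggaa
Mybpc3 (chr2:91117894-91118193, plus strand): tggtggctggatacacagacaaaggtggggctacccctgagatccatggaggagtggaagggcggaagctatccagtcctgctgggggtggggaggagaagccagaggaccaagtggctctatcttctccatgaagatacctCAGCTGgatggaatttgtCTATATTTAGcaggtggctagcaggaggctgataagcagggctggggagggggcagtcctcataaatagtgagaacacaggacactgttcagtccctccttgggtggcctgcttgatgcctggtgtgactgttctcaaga
Myoz2 (chr3:123034938-123035237, minus strand): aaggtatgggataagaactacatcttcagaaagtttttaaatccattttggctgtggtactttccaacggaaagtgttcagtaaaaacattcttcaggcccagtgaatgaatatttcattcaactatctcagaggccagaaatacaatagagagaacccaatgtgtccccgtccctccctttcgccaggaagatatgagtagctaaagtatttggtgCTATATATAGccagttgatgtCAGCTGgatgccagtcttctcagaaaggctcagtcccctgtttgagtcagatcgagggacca
Myom1 (chr17:71019307-71019606, plus strand): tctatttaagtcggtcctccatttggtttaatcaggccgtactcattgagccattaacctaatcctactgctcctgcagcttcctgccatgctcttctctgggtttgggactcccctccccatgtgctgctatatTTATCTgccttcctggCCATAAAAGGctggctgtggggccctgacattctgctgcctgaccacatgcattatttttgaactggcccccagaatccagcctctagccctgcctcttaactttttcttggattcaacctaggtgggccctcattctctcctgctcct
Mypn (chr10:63203903-63204202, minus strand): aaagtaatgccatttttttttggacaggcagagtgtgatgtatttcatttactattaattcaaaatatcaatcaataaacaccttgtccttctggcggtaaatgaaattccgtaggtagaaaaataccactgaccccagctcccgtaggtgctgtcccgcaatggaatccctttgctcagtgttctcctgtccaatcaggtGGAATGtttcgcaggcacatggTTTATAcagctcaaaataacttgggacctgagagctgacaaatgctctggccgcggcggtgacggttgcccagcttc
In Ttn, Mybpc3 and Myoz2 the capitals hold a MEF2 site, the motif of the myocyte enhancer factors, lying from -166 to -157, from -90 to -81 and from -33 to -24 relative to the start. In Myom1 they hold a CArG box, the motif of serum response factor, from -99 to -90, and a GATA box (AGATAA). Mypn had neither of the former motifs, and its capitals are an M-CAT element (CATTCC) and a TATA box (TATAAA). The E-box searched for was CAGCTG, and no capital stretch in these 5 windows overlaps another.

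Over the whole set of windows, the MEF2 site was in 5 of 35 windows of these genes (14.3%), those of Ttn, Mybpc3, Myoz2, Synpo2 and Synpo2l, against 0.557% of the 32851 RefSeq windows of the same length. The CArG box was in 11.4% of the 35 windows (Myom1, Ldb3 and Nebl) against 1.63%, and the E-box in 31.4% against 16.3%. These percentages count a site again where overlapping windows share it, as for the CArG box of Ldb3 and the E-box of Tnni1. By gene, the CArG box was in 3 and the E-box in 10 of the 27 genes with a window. The M-CAT element was in 25.7% against 14.7%, the GATA box in 17.1% against 11.2% and the TATA box in 11.4% against 13.6%. The MEF2 site and the CArG box did not follow the direction of the fold changes throughout. Tnni1, Tmod1 and Lmod2 were also lower in every JIB-04 library, and their windows held neither motif. Myot was lower in every JIB-04 library too but had no window, like Lmod3, Myom2, Myoz1 and Nexn, so it could not be searched. Windows of Synpo2, Synpo2l, Ldb3 and Nebl held a MEF2 site or a CArG box, and the groups of these genes overlapped. These matches describe letters in a window and were not tested as binding sites.

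Position gave a further pattern that the choice of genes did not use. On mm10, 8 of the 32 genes formed 4 pairs that lie within 50 kb of each other, with both genes of each pair on the same strand. Tnni1 and Tnnt2 lie 25.34 kb apart on chromosome 1, and Tnnt1 and Tnni3 lie 2.33 kb apart on chromosome 7, so that in each of these pairs a slow skeletal troponin gene neighbours a cardiac one. Myoz1 and Synpo2l lie 2.88 kb apart on chromosome 14, and Myoz2 and Synpo2, another member of each of those families, lie 41.53 kb apart on chromosome 3. Neighbours differed widely in level. In vehicle, Tnnt2 had 6379 ± 854 CPM per kb of exon (SD, n = 2 throughout for vehicle) and Tnni1 3.32 ± 0.50, while Synpo2l had 161 ± 4.69 and Myoz1 0.534 ± 0.041.

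**Figure D1:**
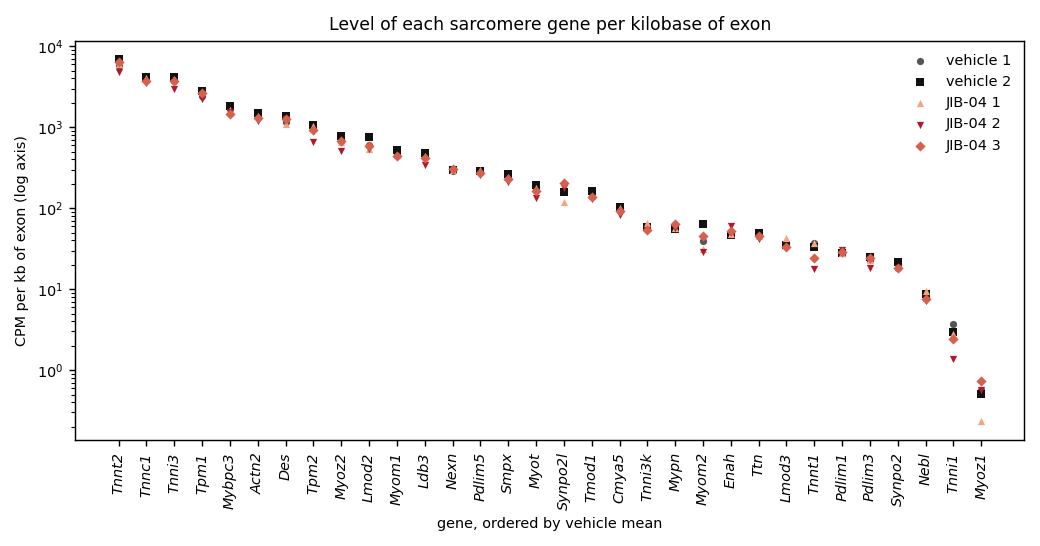
Level of each sarcomere gene in each of the 5 libraries, as deposited CPM per kilobase of merged exon on a log axis, with genes ordered by their vehicle mean (n = 2 vehicle, n = 3 JIB-04). The genes run from Tnnt2 at 6379 to Myoz1 at 0.534 CPM per kb in vehicle, and the libraries of most genes coincide on this scale, with a wider spread for Tnni1, Tnnt1, Tpm2, Myom2, Synpo2l and Myoz1.

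Levels can be compared between genes only per kb of exon. On that scale Tnnt2 was highest in vehicle, followed by Tnnc1 at 4008 ± 290 and Tnni3 at 3956 ± 361 CPM per kb, which did not differ beyond their spread. Tpm1 came next at 2609 ± 267 and Mybpc3 at 1763 ± 110. Actn2 at 1417 ± 98.4 and Des at 1279 ± 158 were next, and these neighbours lay within their spread. Ttn was the fourth by CPM among the 32 genes but only rank 24 per kb, at 47.5 ± 3.11, because its merged exons span 113.59 kb. The cardiac troponins were far above the slow skeletal ones, with Tnnt1 at 35.3 ± 2.91 and Tnni1 at 3.32 ± 0.50 CPM per kb. Together the 32 genes took 6.24% and 6.69% of the gene reads in the vehicle libraries and 6.33%, 5.81% and 6.36% in the JIB-04 libraries with replicate numbers 1 to 3, which is the order of all values below.

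No sarcomere gene passed the test for a difference between JIB-04 and vehicle. limma was run on log2(CPM + 1) for 14414 genes, with p-values adjusted by Benjamini-Hochberg over all of them and a threshold of 0.05, and it called 0 of the 32 and 0% of all genes. The smallest adjusted p among the 32 was 0.750, for Tmod1. edgeR's quasi-likelihood test, limma-voom and DESeq2 on the recovered reads also called 0 of 32. Over all genes edgeR and limma-voom called 0 as well, whereas DESeq2 called 69 higher (0.455% of 15153 genes with an adjusted p) and 16 lower (0.106%). At an unadjusted limma p under 0.05, 1 of the 32 was lower and 0 were higher, beside 2.51% and 3.93% of all genes, and the number at that p in either direction was 2 by edgeR (all genes 6.56%), 2 by limma-voom (all genes 6.05%) and 3 by DESeq2 (all genes 4.38%). The intervals were wide for many genes, and that of Tnnt2 at the 95% level ran from -0.74 to 0.44 on the log2 scale.

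The fold changes nevertheless lay mostly on 1 side. The log2 fold change was below 0 for 27 of 32 genes, while 53.1% of all genes tested were below 0. The median over the 32 was -0.13, beside -0.01 over all genes. By structure, the medians were -0.17 for the 11 thin filament genes, all of which were below 0, and -0.08 for the 17 Z-disc genes, of which 12 were below 0 and 5 above. All 3 JIB-04 libraries lay below the lower vehicle library for 8 genes (Tnni1, Tmod1, Lmod2, Ttn, Mybpc3, Myom1, Myoz2 and Myot), where 12% of all genes did so. They lay above the higher vehicle library for 1 gene, Mypn, where 10.7% of all genes did so. The count of 8 rests on the libraries included. Without vehicle 1 the count was 21 (all genes 27.2%) and without JIB-04 1 it was 20 (all genes 28.9%), while without JIB-04 1 the count of higher genes was 4 (all genes 23.3%). Fewer libraries make separation easier, as the shares of all genes show.

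**Figure D2:**
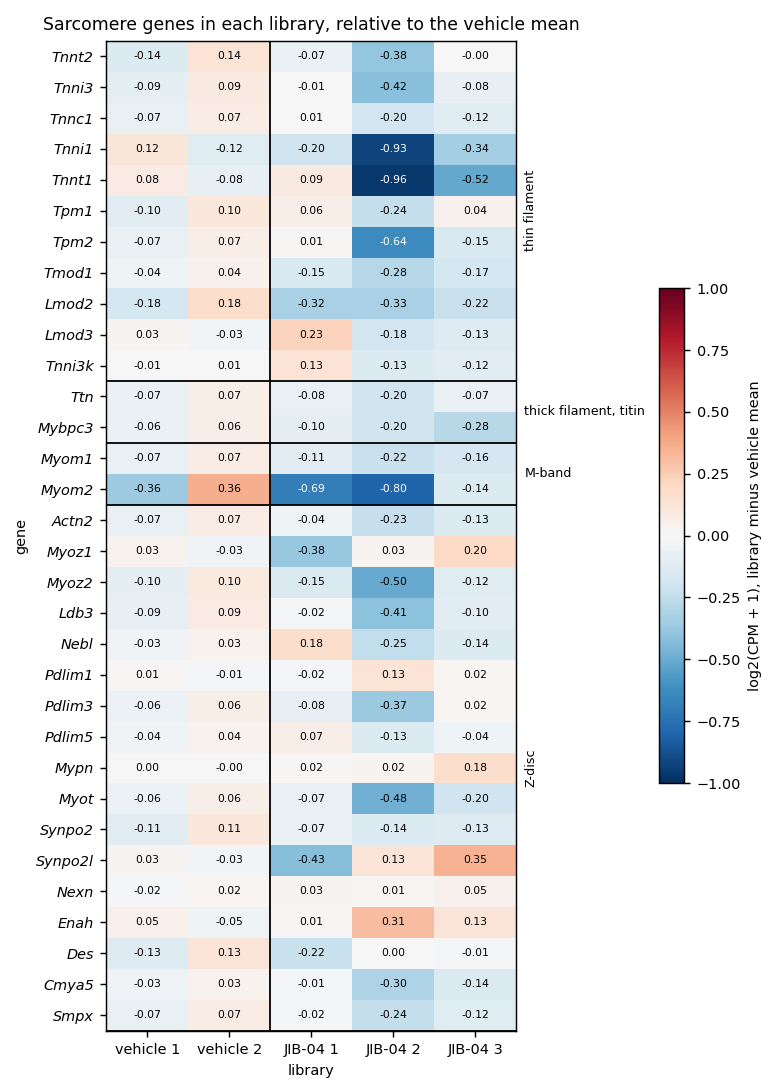
Each sarcomere gene in each library as log2(CPM + 1) minus the mean of the 2 vehicle libraries, printed in the cell and coloured from -1 (blue) to 1 (red), with black lines between structural groups and between vehicle and JIB-04. JIB-04 2 is blue in most thin filament cells, JIB-04 1 is close to 0 in many, and the 2 vehicle libraries mirror each other because they are centred on their own mean.

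The libraries contributed unequally. JIB-04 2 held the lowest of the 5 values for 24 of the 32 genes (75.0%, beside 29.5% of all genes), among them all 11 thin filament genes, and vehicle 2 held the highest for 20 (62.5%, beside 22.7% of all genes). The median of the 32 genes relative to the vehicle mean was -0.06 and 0.06 in vehicle and -0.03, -0.23 and -0.12 in JIB-04, on the log2(CPM + 1) scale. Without JIB-04 2 the thin filament median was -0.06, and without vehicle 1 it was -0.26. The median of all 32 was -0.07 without JIB-04 2, -0.06 without vehicle 2 and -0.20 without vehicle 1. Without JIB-04 2, 23 of the 32 were below 0, and the median over all genes was -0.0067. In that fit 8 were lower in every JIB-04 library left, a count that cannot fall when a JIB-04 library is removed. The shares of all genes for both counts are not given here.

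In the thin filament, the cardiac troponin complex showed overlapping groups. Tnnt2, which ties the complex to tropomyosin, had 7294 and 8819 CPM in vehicle and 7662, 6147 and 8011 CPM in JIB-04. Its log2 fold change was -0.15 (SE 0.25). JIB-04 2 was the lowest library and the other 2 JIB-04 libraries lay within the vehicle range. Tnni3, the inhibitory subunit, had 3376 and 3841 CPM in vehicle and 3588, 2693 and 3399 in JIB-04, with a log2 fold change of -0.17 (SE 0.19). Tnnc1, the calcium sensor, had 2742 and 3038 CPM in vehicle and 2901, 2521 and 2658 in JIB-04 (log2 fold change -0.10, SE 0.14). All 3 subunits of the adult complex had their lowest value in JIB-04 2 and their highest in vehicle 2. Tnni3k, a kinase that binds cardiac troponin I, was steadier at 178 and 180 CPM in vehicle and 196, 163 and 165 in JIB-04, with its highest value in JIB-04 1.

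The slow skeletal troponins, of which Tnni1 is the form of the fetal heart, had larger fold changes at far lower levels. Tnni1 (chr1:135799421-135810989, plus strand) had 4.68 and 3.78 CPM in vehicle and 3.54, 1.74 and 3.13 CPM in JIB-04. The groups did not overlap, but vehicle 2 and JIB-04 1 lay close together. Its log2 fold change was -0.49 (SE 0.23, limma adjusted p = 0.815), and -0.59 by edgeR on the reads, since the pseudocount shrinks changes at this level. It was -0.27 without JIB-04 2. Tnnt1 had 40.3 and 35.9 CPM in vehicle and 40.5, 19.0 and 26.3 in JIB-04. Here JIB-04 1 was the highest library of all, and the log2 fold change was -0.46 (SE 0.27, limma adjusted p = 0.821), with -0.21 without JIB-04 2 and -0.74 without JIB-04 1. Leaving out each library in turn gave Tnnt1 limma adjusted p-values from 0.0925, without JIB-04 1, to 1.0.

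The tropomyosins, which lie along the actin filament and move with troponin, had overlapping groups. Tpm1, the main cardiac form and the gene with the most reads of the 32, had 11569 and 13372 CPM in vehicle and 12957, 10516 and 12786 in JIB-04, and its log2 fold change was -0.05 (SE 0.30). Tpm2, the beta form, had 2330 and 2553 CPM in vehicle and 2462, 1570 and 2193 in JIB-04, and its log2 fold change was -0.26 (SE 0.21), with -0.07 without JIB-04 2 and -0.39 without JIB-04 1. For Tpm2, JIB-04 2 stood far below the other 4 libraries. Tropomyosin genes share similar coding sequence, and how reads that match several genes were counted is not given in the sources used here.

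Of the genes for proteins at the pointed end of the thin filament, Tmod1 and Lmod2 had groups that did not overlap, and those of Lmod3 overlapped. Tmod1, the cap of that end (chr4:46039222-46116032, plus strand), had 481 and 512 CPM in vehicle and 447, 408 and 440 CPM in JIB-04, or 497 ± 21.7 and 432 ± 20.7 (SD, n = 3 throughout for JIB-04). All 3 JIB-04 libraries lay below both vehicle libraries. The log2 fold change was -0.20 (SE 0.08, 95% interval -0.39 to -0.02), the unadjusted limma p was 0.0370 and the adjusted p 0.750. Lmod2, a leiomodin that promotes filament growth at the same end (chr6:24597771-24605414, plus strand), had 1187 and 1514 CPM in vehicle and 1071, 1069 and 1147 in JIB-04. Its JIB-04 libraries lay within a narrow band below vehicle 1, while vehicle 2 stood well above the rest. Its log2 fold change was -0.29 (SE 0.13, limma adjusted p = 0.794), -0.47 without vehicle 1 and -0.12 without vehicle 2. Lmod3, the leiomodin known mainly from skeletal muscle, had 81.8 and 78.7 CPM in vehicle and 94.3, 70.6 and 73.4 in JIB-04, with no separation of the groups. The exons of Tmod1 share 40.75% of their length with Tstd2 on the opposite strand, which was at 22.6 to 23.9 CPM, and whether the counting used strand is not given in the sources used here.

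Of the thick filament and titin genes, both were lower in every JIB-04 library, by small margins. Ttn (chr2:76703984-76982547, minus strand), which encodes the spring of the sarcomere, had 5150 and 5649 CPM in vehicle and 5114, 4690 and 5130 CPM in JIB-04. JIB-04 1 and 3 lay just under vehicle 1, and the log2 fold change was -0.12 (SE 0.18). Mybpc3, cardiac myosin binding protein C (chr2:91118144-91136516, plus strand), had 7015 and 7664 CPM in vehicle and 6837, 6377 and 6045 in JIB-04, and its log2 fold change was -0.19 (SE 0.21). For Mybpc3 the lowest library was JIB-04 3, unlike most of the 32 genes. The limma adjusted p was 0.911 for Ttn and 0.879 for Mybpc3.

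In the M-band, Myom1, the myomesin that cross-links thick filaments (chr17:71019557-71126856, plus strand), had 2673 and 2964 CPM in vehicle and 2599, 2416 and 2510 in JIB-04. The groups did not overlap, and the log2 fold change was -0.17 (SE 0.13, limma adjusted p = 0.852). Myom2, the M-protein (chr8:15057653-15133419, plus strand), had 198 and 327 CPM in vehicle and 157, 145 and 231 in JIB-04. Its JIB-04 3 value lay between the 2 vehicle libraries. The log2 fold change of -0.54 (SE 0.26, limma adjusted p = 0.816) was the lowest of the 32 genes, and it was -0.91 without vehicle 1 and -0.18 without vehicle 2.

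Among the Z-disc genes, Actn2, the alpha-actinin that anchors thin filaments, had 4059 and 4479 CPM in vehicle and 4135, 3638 and 3883 CPM in JIB-04, and its log2 fold change was -0.14 (SE 0.17). Ldb3, a PDZ-LIM protein that binds alpha-actinin, had 2602 and 2929 CPM in vehicle and 2719, 2081 and 2570 in JIB-04. Des, the muscle intermediate filament that links Z-discs, had 3534 and 4212 CPM in vehicle and 3314, 3860 and 3826 in JIB-04. Pdlim5, another PDZ-LIM protein of the Z-disc, had 1907 and 2004 CPM in vehicle and 2049, 1782 and 1901 in JIB-04. For all 4 of these, the most highly read of the Z-disc genes, the groups overlapped. In Des the lowest library was JIB-04 1, whereas in the other 3 it was JIB-04 2.

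In 2 Z-disc genes, Myoz2 and Myot, every JIB-04 library was the lower. Myoz2, the cardiac calsarcin that tethers calcineurin to the Z-disc (chr3:123006206-123034987, minus strand), had 799 and 915 CPM in vehicle and 773, 603 and 787 CPM in JIB-04. Its log2 fold change was -0.26 (SE 0.14, limma adjusted p = 0.821), and JIB-04 1 and 3 lay just under vehicle 1. Myot, or myotilin, which cross-links actin, had 395 and 428 CPM in vehicle and 392, 294 and 357 in JIB-04, and its log2 fold change was -0.25 (SE 0.13, limma adjusted p = 0.816). JIB-04 2 was the lowest library for both.

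Of the 5 Z-disc genes with a log2 fold change above 0, Mypn and Enah are described first, and Pdlim1, Synpo2l and Nexn are among the genes given by range. Mypn, or myopalladin, which binds alpha-actinin and nebulette (chr10:63115795-63203952, minus strand), had 326 and 325 CPM in vehicle and 329, 331 and 367 CPM in JIB-04. All 3 JIB-04 libraries were above both vehicle libraries, and the 2 lower ones by a few CPM only. Its log2 fold change was 0.07 (SE 0.08, limma adjusted p = 0.874), or 0.02 without JIB-04 3. Enah, which promotes actin filament growth, had 628 and 582 CPM in vehicle and 609, 751 and 661 in JIB-04, with the highest log2 fold change of the 32 genes at 0.15 (SE 0.11, limma adjusted p = 0.836). Its highest library was JIB-04 2, the library in which most of the others were lowest. Smpx, a small protein of the costamere, lay below 0 like most of the 32 genes. It had 291 and 321 CPM in vehicle and 302, 259 and 281 in JIB-04, and its log2 fold change was -0.12 (SE 0.09).

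The other 8 Z-disc genes (Myoz1, Nebl, Pdlim1, Pdlim3, Synpo2, Synpo2l, Nexn and Cmya5) had overlapping groups and log2 fold changes from -0.15 for Cmya5 to 0.05 for Pdlim1. The steadiest was Nexn, the actin binding protein nexilin, at 843 to 880 CPM over the 5 libraries. Cmya5, or myospryn, a large partner of desmin and alpha-actinin, ranged from 977 to 1234 CPM, and Synpo2, or myopodin, an actin bundling protein, from 234 to 278 CPM. Nebl, the cardiac relative of nebulin, ranged from 73.1 to 98.4 CPM, with both its lowest and its highest value in JIB-04 libraries. Among the PDZ-LIM proteins, Pdlim1 ranged from 71.2 to 79.2 CPM and Pdlim3 from 35.8 to 48.6 CPM, and in Pdlim1, as in Enah, JIB-04 2 was the highest library. Synpo2l, a relative of myopodin and singled out after its values were seen, had 762 and 731 CPM in vehicle and 554, 817 and 950 CPM in JIB-04. Its JIB-04 libraries thus lay on both sides of the vehicle pair, and its log2 fold change was 0.02 (SE 0.21). Myoz1, the skeletal calsarcin, was at 0.30 to 0.94 CPM and the lowest of the 32 genes. The exons of Cmya5 and Des overlap antisense genes, which were at no more than 0.0852 and 0.651 CPM.

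**Figure D3:**
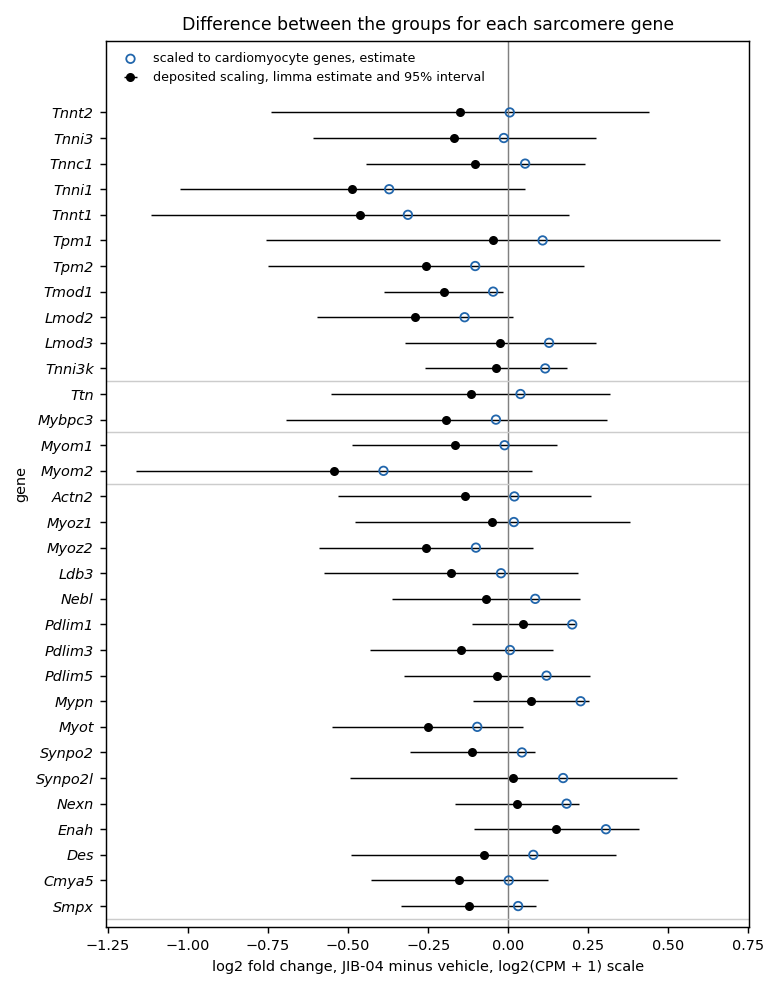
Log2 fold change of each sarcomere gene, JIB-04 minus vehicle, on the log2(CPM + 1) scale: filled points with bars are limma estimates with 95% intervals (n = 2 vehicle, n = 3 JIB-04) and open circles are the estimates after scaling each library to 20 cardiomyocyte genes. Every interval except that of Tmod1 crosses 0, and the open circles lie to the right of the filled points, 20 of them above 0.

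The ratio of related genes within a library does not depend on how the library was scaled. Over 8 such pairs an exact two-sided permutation test was run over the 10 ways to split 5 libraries. Its smallest possible p is 0.1, so no pair could pass 0.05, and the values are a description. Tpm2 was at 20.1% and 19.1% of Tpm1 in vehicle and at 19.0%, 14.9% and 17.2% in JIB-04, in CPM. These groups did not overlap, by a margin that was narrow at JIB-04 1, and the log2 difference was -0.21 (exact p = 0.2, adjusted p = 0.64 over the 8 pairs). Tnni1 was at 0.139% and 0.0983% of Tnni3 in vehicle and at 0.0986%, 0.0647% and 0.0920% in JIB-04, a log2 difference of -0.48 (exact p = 0.3, adjusted p = 0.64). Myom2 was at 7.40% and 11.03% of Myom1 in vehicle and at 6.04%, 6.01% and 9.21% in JIB-04, a log2 difference of -0.38 (exact p = 0.3, adjusted p = 0.64). Single libraries moved these differences. The log2 difference of Tpm2 to Tpm1 was -0.12 without JIB-04 2. That of Tnni1 to Tnni3 was -0.23 without vehicle 1, -0.73 without vehicle 2 and -0.29 without JIB-04 2. That of Myom2 to Myom1 was -0.09 without vehicle 2, -0.67 without vehicle 1 and -0.58 without JIB-04 3.

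The log2 difference was -0.33 for Tnnt1 to Tnnt2 and -0.11 for Pdlim3 to Pdlim5 (exact p = 0.4 each), and 0.27 for Lmod3 to Lmod2 (exact p = 0.6). It was -0.13 for Synpo2 to Synpo2l (exact p = 0.8) and 0.03 for Myoz1 to Myoz2 (exact p = 1.0). Without vehicle 1 the differences were -0.11 for Tnnt1 to Tnnt2 and 0.47 for Lmod3 to Lmod2, and without vehicle 2 they were -0.55 and 0.06. Without JIB-04 1 these 2 were -0.57 and 0.12, and without JIB-04 2 the first was -0.19. The difference of Pdlim3 to Pdlim5 was -0.05 without JIB-04 2 and -0.20 without JIB-04 3. The pairs Synpo2 to Synpo2l and Myoz1 to Myoz2 spread more within JIB-04 than between the groups. The Myoz1 ratio was 0.0388% in JIB-04 1 and about 0.12% in the other 2 JIB-04 libraries.

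**Figure D4:**
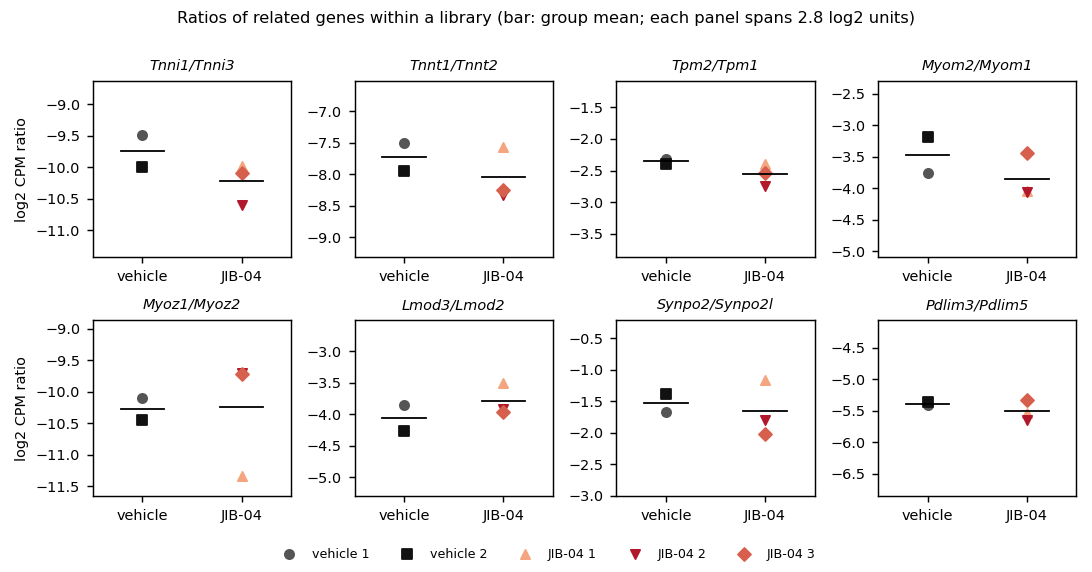
Log2 ratio of CPM for 8 pairs of related sarcomere genes, with a point for each library and a bar at each group's mean (n = 2 vehicle, n = 3 JIB-04); each panel spans the same 2.8 log2 units. Points of the groups overlap in every panel except Tpm2 to Tpm1, where the nearest vehicle and JIB-04 points lie at 19.1% and 19.0%.

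Markers of the cells of the heart moved between these same libraries. The 20 cardiomyocyte genes that encode no sarcomere protein summed to 50987 and 56474 CPM in vehicle and 53434, 45893 and 48550 in JIB-04. Of these 20, 19 were below 0, with a median log2 fold change of -0.15. Their geometric mean relative to vehicle was -0.06 and 0.06 in vehicle and -0.05, -0.25 and -0.16 in JIB-04 on a log2 scale, an order of libraries like that of the sarcomere genes. In bulk tissue, fewer cardiomyocytes and less of these RNAs per cardiomyocyte cannot be told apart. Ppp3ca, the calcineurin catalytic subunit, was at 6082 and 8022 CPM in vehicle and 7275, 4341 and 5421 in JIB-04, also lowest in JIB-04 2. Since the transgene also drives a calcineurin, these values may include its reads, which was not tested.

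The 14 macrophage and leukocyte markers tested summed to 371 and 267 CPM in vehicle and 373, 511 and 584 in JIB-04, with 13 of 14 above 0. The fibroblast markers summed to 4765 and 4410 CPM in vehicle and 4588, 5900 and 5637 in JIB-04, with 11 of 12 above 0, so both lists were highest in JIB-04 2 and 3. Endothelial markers ranged from 1148 to 1533 CPM and smooth muscle markers from 1489 to 2120 CPM, with the groups overlapping in both. Red blood cell markers summed to 7457 and 4876 CPM in vehicle and 1796, 3571 and 2616 in JIB-04. The globin genes of that list include pairs with identical values in every library (Hbb-b1 and Hbb-bs, Hbb-b2 and Hbb-bt, Hba-a1 and Hba-a2). The red blood cell sums include both genes of each pair, so they count the same signal more than once. limma called no gene of these lists at an adjusted p under 0.05. At an unadjusted limma p under 0.05, 11 of the 14 macrophage genes and 2 of the 12 fibroblast genes were higher. Lower at that p were 3 of the 20 cardiomyocyte genes and 9 of the 10 red blood cell genes, with identical pairs counted as separate genes. Over all genes, 3.93% were higher and 2.51% lower at that p. The part of these markers in the sarcomere values was not tested. As to tissue, 5 of 12 fast skeletal genes (Tnni2, Tnnc2, Myh1, Myh2 and Myoz3) had too few reads to be tested. Of the 7 tested, Myl1 was at 84.1 to 149 CPM and Mybpc2 at 10.8 to 17.7 CPM. The others reached no more than 0.977 CPM, in Tnnt3.

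**Figure D5:**
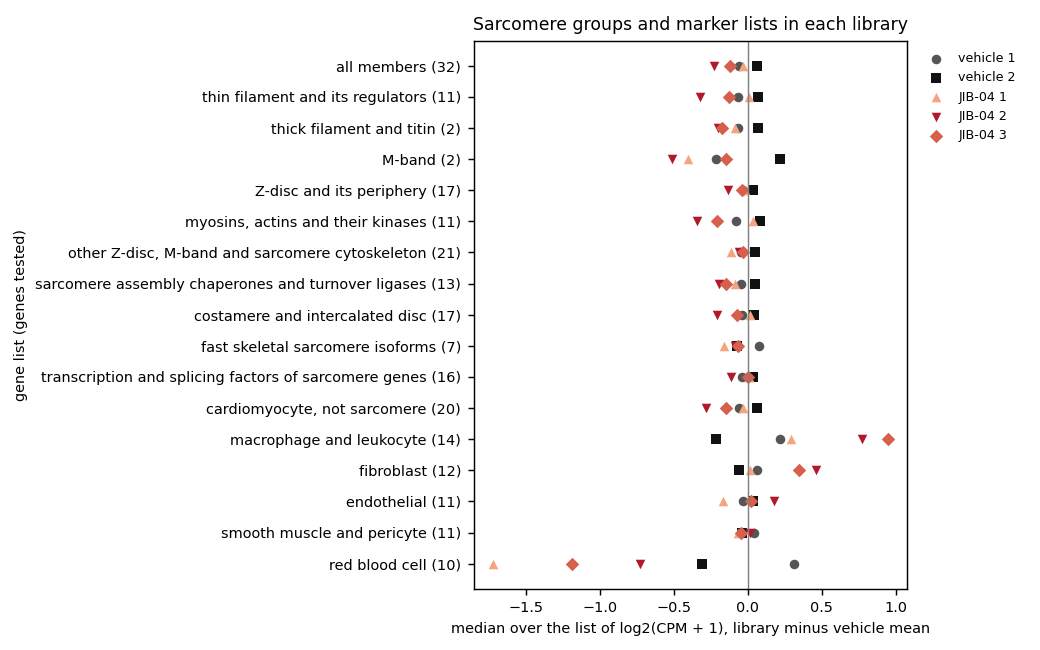
Median over each gene list of log2(CPM + 1) minus the vehicle mean, with a point for each of the 5 libraries; lists are the sarcomere groups, 6 lists of related genes and 6 lists of cell markers, with the number of genes tested in brackets. The sarcomere groups and the cardiomyocyte list are lowest in JIB-04 2, where the macrophage list is at 0.77 and the fibroblast list at 0.46. The list of other Z-disc, M-band and sarcomere cytoskeleton genes is lowest in JIB-04 1.

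Scaling each library to the cardiomyocyte genes raised all genes by about the same amount, and the median over all genes moved from -0.01 to 0.13. The sarcomere median moved from -0.13 to 0.02 and so stayed below that of all genes. On this scale 12 sarcomere genes were below 0 and 20 above, beside 14.4% of all genes below 0. The groups did not overlap for 2 genes that were lower (all genes 2.1%) and 5 that were higher (all genes 30.9%). The sign of 15 of the 32 fold changes turned with this common shift, while Tmod1 was at -0.05, Lmod2 at -0.14, Tnni1 at -0.37 and Myom2 at -0.39. Scaled to the library total instead, 23 of the 32 were below 0. Their median was then -0.0773, beside 0.0379 over all genes.

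None of the genes in 6 lists of related genes passed the test either. The counts of genes with groups apart in these lists stand beside 12% of all genes lower and 10.7% higher. Of the 11 myosins, actins and their kinases, 9 were below 0, with a median log2 fold change of -0.18, and none had groups apart. Mylk3, the kinase of the cardiac myosin light chain, had 634 and 677 CPM in vehicle and 637, 528 and 565 in JIB-04. Of 21 other Z-disc, M-band and sarcomere cytoskeleton genes, 13 were below 0 (median -0.03), 5 were lower in every JIB-04 library and 1, Neb, was higher. Neb, the giant thin filament ruler of skeletal muscle, had 24.2 and 28.4 CPM in vehicle and 31.8, 29.4 and 45.7 in JIB-04 (log2 fold change 0.40, limma adjusted p = 0.815). Csrp3, the muscle LIM protein, had 940 and 900 CPM in vehicle and 744, 823 and 848 in JIB-04.

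Of 13 chaperones and ligases that assemble or turn over the sarcomere, 11 were below 0 (median -0.12) and 3 were lower in every JIB-04 library. These were Klhl41, which stabilises thin filament proteins, at 149 and 158 CPM in vehicle and 136, 111 and 139 in JIB-04, and the ubiquitin ligases Trim55 and Trim63. Trim63 had 243 and 330 CPM in vehicle and 230, 237 and 238 in JIB-04. Of 17 costamere and intercalated disc genes, 16 were below 0 (median -0.10) and 4 were lower in every JIB-04 library, among them Vcl, or vinculin, with 317 and 327 CPM in vehicle and 298, 256 and 286 in JIB-04. JIB-04 2 was the lowest library for 15 of these 17, beside 29.5% of all genes. Among the 21 other Z-disc, M-band and sarcomere cytoskeleton genes it was the lowest for only 6. There JIB-04 1 was the lowest for 11, beside 19.6% of all genes.

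Of the 7 fast skeletal genes tested, 6 were below 0. Myl1, a fast skeletal myosin light chain, had 149 and 110 CPM in vehicle and 91.0, 84.1 and 92.9 CPM in JIB-04 (log2 fold change -0.52, SE 0.13, limma adjusted p = 0.554). Its JIB-04 libraries lay close together below both vehicle libraries. Of 16 transcription and splicing factors of sarcomere genes, 11 were below 0 (median -0.03), 3 were lower in every JIB-04 library and 2 were higher. Hand2, a heart basic helix-loop-helix factor, had 115 and 117 CPM in vehicle and 85.3, 79.5 and 108 in JIB-04. Myocd, the coactivator of serum response factor, had 69.9 and 75.9 CPM in vehicle and 66.5, 53.0 and 64.7 in JIB-04. Tbx20, a heart T-box factor, had 244 and 267 CPM in vehicle and 279, 294 and 282 in JIB-04, above both vehicle libraries. limma called 0 genes of any of these 6 lists, and 0% of all genes.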

How the data were processed

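RNA sequencing of heart was analysed in 5 libraries, which the labels' protocols describe as Trizol extracts prepared with a TruSeq stranded mRNA kit. The submitters' processing notes name FastQC 0.11.2, TopHat2 2.0.12, Picard 1.127, featureCounts, Subread, edgeR and build mm10, without role or order. The deposited files give a normalised signal per gene under a CPM header. Since column sums ran from 954981 to 1046902, it is not plain CPM. In units of a single read, 100% of values were whole within 0.01, so whole reads were recovered, 32152168 to 37002846 per library, with 3 reads worth 0.0804 to 0.0977 CPM. That floor covers counting error only.

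Genes passed edgeR's filterByExpr (minimum 10 reads, 15 in total), leaving 14414. limma 3.58.1 (R 4.3.3), with a mean-variance trend, compared log2(CPM + 1), which understates changes of low genes, with 3 residual degrees of freedom and Benjamini-Hochberg adjustment. The code was tested on simulated data. Alternatives were edgeR 4.0.16, DESeq2 1.42.0 and limma-voom on recovered reads, a pseudocount of 0.1, no filter, a mean CPM of at least 1, other scalings, leaving out each library and the replicate number as a block. Two-sided exact permutation tests were used for ratios.

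The 32 genes, the related lists and the marker lists were chosen with earlier results of these data known. All thin filament, thick filament and M-band genes are named with every value. So are Z-disc genes among the 4 smallest p, the 4 highest mean CPM or with groups apart, and the rest are given by range. At most 3 genes with the smallest p come from each related list. Coordinates are 1-based on mm10, and exon lengths come from GENCODE vM21.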

Additional observations from a re-analysis of the deposited data

How the results depend on the processing

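No alternative called any of the 32 genes. Over all genes the count was 0 except for 85 by DESeq2 and, leaving out each library in turn, 0 to 29, the latter without JIB-04 replicate 1. Genes lower in every JIB-04 library numbered 8 to 21 over the leave-one-out fits and those higher 1 to 4. The 21 was without vehicle replicate 1 (all genes 27.2%) and the 4 without JIB-04 replicate 1 (all genes 23.3%). Median-of-ratios size factors gave 2 higher, a setting for which no share of all genes is given. Scaled to cardiomyocyte genes, 2 were lower (all genes 2.1%) and 5 higher (all genes 30.9%). The medians on that scale were 0.0185 for all 32, -0.0137 for the thin filament and 0.0429 for the Z-disc. The Z-disc median ran from -0.19 (without vehicle replicate 1) to -0.0343 on leaving out libraries. Scaling to cardiomyocyte genes shifted all genes up and turned 15 signs, to 0.005 for Tnnt2, 0.053 for Tnnc1, 0.108 for Tpm1, 0.128 for Lmod3, 0.116 for Tnni3k, 0.0385 for Ttn, 0.0193 for Actn2, 0.0178 for Myoz1, 0.0845 for Nebl, 0.0057 for Pdlim3, 0.12 for Pdlim5, 0.0429 for Synpo2, 0.0785 for Des, 0.0017 for Cmya5 and 0.0311 for Smpx. Scaling to the library total turned Tpm1 to 0.0049, Lmod3 to 0.0265, Tnni3k to 0.0136 and Pdlim5 to 0.0172. Leaving out a library gave ranges across 0 of -0.15 to 0.0567 for Tpm1, -0.15 to 0.0529 for Lmod3, -0.13 to 0.0093 for Tnni3k, -0.17 to 0.11 for Myoz1, -0.19 to 0.0201 for Nebl, -0.0869 to 0.0135 for Pdlim5, -0.15 to 0.24 for Synpo2l and -0.20 to 0.0498 for Des. For the ratios these were -0.24 to 0.57 for Myoz1 to Myoz2 and -0.37 to 0.0474 for Synpo2 to Synpo2l.

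Replicate numbers shared by the groups are not said in the labels to mark a batch, and same-numbered libraries deviated with correlations of -0.133 and -0.135. The deviations of the 2 vehicle libraries mirror each other, so only the sign turns with the vehicle library. JIB-04 1 with vehicle 2 gave 0.133 and JIB-04 2 with vehicle 1 gave 0.135. Whether a batch was shared was not tested. In the blocked fit 0 genes were called, Lmod3 was at 0.0247 and Synpo2l at -0.15, equal to the fit without JIB-04 replicate 3, which has no vehicle partner. Except for the reversals named, the 32 genes kept their direction under every alternative run. Only 2 and 3 libraries limit the precision, which the printed intervals give gene by gene. Where a vehicle library was left out, the lone one was taken to vary like the JIB-04 libraries. Separation of the groups is easier with fewer libraries, and the cause of the other shifts was not tested.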
